A study of Mus musculus with 6 samples.

Results

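The genes described here encode the enzymes that make cholesterol and fatty acids, with the proteins that switch them on. Their transcripts were followed in the lungs of BALB/c mice, all male. The list held 35 genes: 17 of the cholesterol arm, 13 of the fatty acid arm and 5 regulators. Members were taken as every probe set (a group of short probes for a transcript) whose array annotation names only that gene. This gave 59 of 45037 probe sets, for 32 of 17097 genes. The regulator Srebf1, the cholesterol enzyme gene Pmvk and the desaturase gene Scd2 had no such probe set and were not analysed here, which left 16 cholesterol genes, 12 fatty acid genes and 4 regulators.

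The mice were 10 weeks old when they were divided into groups of 3. The control group was kept in normal air and the hydrogen group in air with 2% H2, molecular hydrogen, and the lungs were taken after 3 weeks. Each lung was read on its own array, as a log2 value per probe set, and the design asks which transcripts differ after breathing hydrogen. RNA came from the whole organ, so fewer cells of a type and less RNA per cell cannot be told apart.

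Cholesterol is built from acetyl-CoA through mevalonate, isoprenoids, squalene and lanosterol. Fatty acids are built by carboxylating acetyl-CoA to malonyl-CoA, joining these units into palmitate, and then lengthening and desaturating the chain. Both pathways are driven by the SREBP transcription factors, which SCAP carries out of the endoplasmic reticulum for activation and which INSIG proteins hold back when sterols are plentiful. In lung, alveolar type 2 cells make fatty acids for surfactant lipid, and fat cells around the airways and vessels make them for storage.

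SREBP proteins bind sterol regulatory elements together with NF-Y, which binds CCAAT, and Sp1, which binds GGGCGG. Promoter sequences were listed for 28 of the 35 members in the RefSeq table of GRCm38.p6. Motifs were searched in the 250 bases before the start, on both strands. A gene with several listed starts counted if a motif lay before any of them. CCAAT was present in 23 of these 28 genes (82.1%), against 37.5% of all 27025 genes with a sequence. By arm the motif was in 13 of 13 cholesterol genes, 6 of 10 fatty acid genes and 4 of 5 regulators. GGGCGG was present in 21 of 28 (75.0%, against 35.4%), in 12 of the 13 cholesterol genes and 4 of the 10 fatty acid genes. The sterol element written as TCACNCCAC was found in Hmgcs1 alone among the 28 (331 of all 27025 genes, 1.22%). The E-box form TCANNTGA was found in Thrsp and Insig2 (8.11% of all genes).

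A set of 5 promoters is printed because their genes represent the patterns in the expression data: Thrsp and Fasn were lower in the hydrogen lungs, Elovl1 and Mvk were higher, and Hmgcs1 alone held the sterol element. Each line gives the 250 bases before the start, 5′ to 3′, with every match to these 4 motifs on either strand in capitals. For Elovl1 the first of 2 listed starts is shown.
Thrsp (chr7:97417551-97417800, minus strand): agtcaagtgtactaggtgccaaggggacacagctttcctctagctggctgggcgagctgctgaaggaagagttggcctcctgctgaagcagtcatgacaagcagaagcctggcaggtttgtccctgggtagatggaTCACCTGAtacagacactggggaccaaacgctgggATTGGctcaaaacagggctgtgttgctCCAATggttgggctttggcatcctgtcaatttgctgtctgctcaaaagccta
Fasn (chr11:120824548-120824797, minus strand): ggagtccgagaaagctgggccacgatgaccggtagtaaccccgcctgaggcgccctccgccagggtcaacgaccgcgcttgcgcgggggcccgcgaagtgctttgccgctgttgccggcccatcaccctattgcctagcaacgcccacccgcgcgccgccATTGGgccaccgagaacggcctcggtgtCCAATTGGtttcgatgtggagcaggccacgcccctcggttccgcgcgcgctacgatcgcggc
Elovl1 (chr4:118427843-118428092, plus strand): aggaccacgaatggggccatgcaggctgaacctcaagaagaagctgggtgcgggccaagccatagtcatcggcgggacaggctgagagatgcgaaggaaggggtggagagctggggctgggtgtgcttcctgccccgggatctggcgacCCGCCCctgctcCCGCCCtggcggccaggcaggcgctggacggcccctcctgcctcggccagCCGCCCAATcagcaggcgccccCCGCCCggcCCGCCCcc
Mvk (chr5:114444019-114444268, plus strand): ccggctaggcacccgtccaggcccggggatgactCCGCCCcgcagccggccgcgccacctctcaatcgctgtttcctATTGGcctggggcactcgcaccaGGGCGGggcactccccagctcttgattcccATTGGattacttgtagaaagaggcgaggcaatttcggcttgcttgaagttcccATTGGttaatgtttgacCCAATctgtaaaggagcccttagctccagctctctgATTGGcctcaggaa
Hmgcs1 (chr13:119690101-119690350, plus strand): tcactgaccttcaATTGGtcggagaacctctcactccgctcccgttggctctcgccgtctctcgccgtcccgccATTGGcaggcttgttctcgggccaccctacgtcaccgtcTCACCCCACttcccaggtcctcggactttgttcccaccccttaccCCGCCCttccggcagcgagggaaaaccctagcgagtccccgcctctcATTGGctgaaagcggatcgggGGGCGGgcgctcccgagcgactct
In Fasn a CCAAT overlaps its own reverse complement, and in Elovl1 a CCAAT overlaps a reverse GGGCGG. The NF-Y motif was present both in the promoter of a gene that fell, Fasn, and in promoters of genes that rose. These matches describe letters in a window and were not tested as binding sites.

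Much of the array differed between the groups, which is the background for every count below. The brightest probe set over all arrays stood for a gene, and a call was an adjusted p under 0.05 in limma (Benjamini-Hochberg, over all probe sets). By that rule 25.5% of all genes were higher and 25.9% lower in hydrogen, and 61% had groups that did not overlap. With arrays centred on their medians the split was 15.7% higher and 35.8% lower. Bacterial, phage and nonspecific control probe sets moved too, with 9 higher and 27 lower of 68. By class, 13 of 18 bacterial bio and phage cre probe sets were lower and 0 higher, with a median log2 fold change of -0.40. Of 27 bacterial poly-A control probe sets 14 were lower and 0 higher (median -0.25). Of 23 nonspecific probe sets 9 were higher and 0 lower (median 0.05). The labels give no batch, so a batch and the exposure cannot be told apart. Bright genes tended downward and dim genes upward: above the median probe set 37.9% of genes were lower and 16.4% higher, and at or below it 5.28% were lower and 41% higher. Of the 32 member genes, 30 lay above the median probe set.

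The fatty acid arm was mostly lower in the hydrogen lungs and the cholesterol arm was mixed. Of 12 fatty acid genes, 7 fell, 1 rose and 4 did not pass, with a median log2 fold change of -0.39. Of 16 cholesterol genes, 3 fell, 3 rose and 10 did not pass, with a median of -0.12. Of the 4 regulators, 1 fell, 1 rose and 2 did not pass, with a median of -0.09. Over all genes the median was 0.01. In all, 16 of the 32 members passed (51.4% of all genes did), so the members as a whole changed about as often as other genes. The groups did not overlap for 20 of the 32 members (61% of all genes), of which 8 were fatty acid genes, 9 cholesterol genes and 3 regulators.

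**Figure D1:**
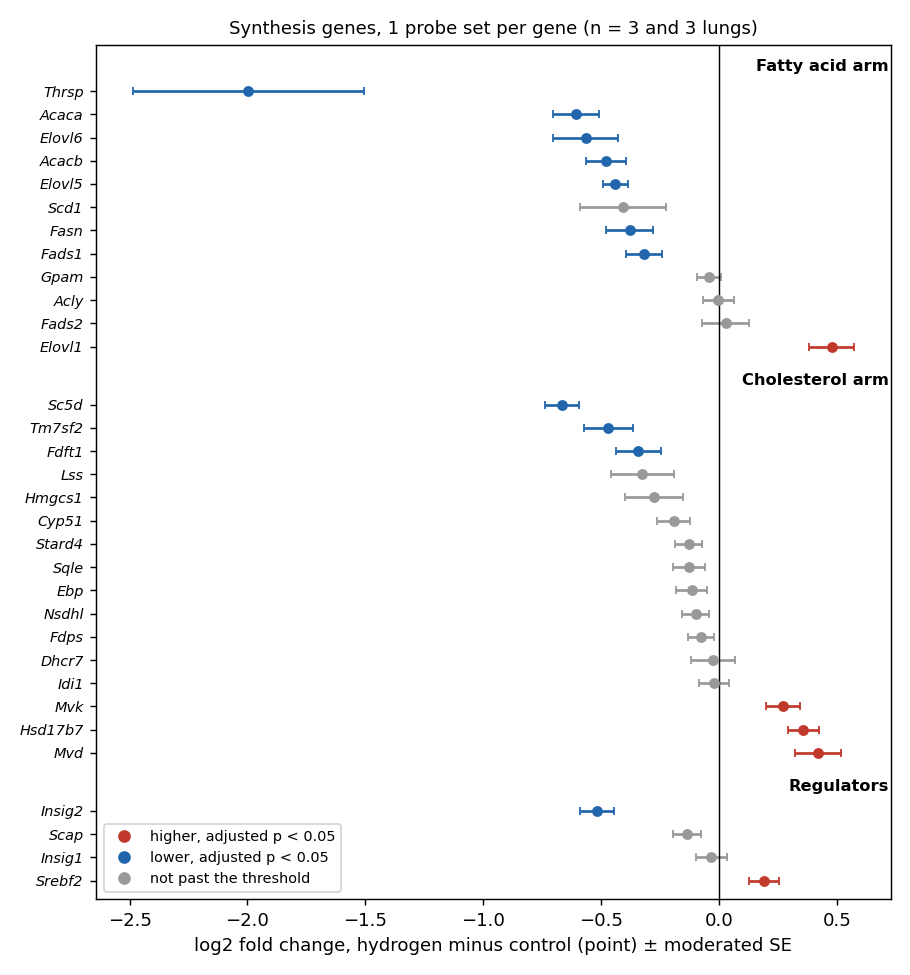
Log2 fold change (hydrogen minus control, x axis) of the brightest probe set of each of the 32 member genes, with its moderated standard error, ordered within the fatty acid arm, the cholesterol arm and the regulators. Blue points are lower and red points higher at an adjusted p under 0.05 in limma; Thrsp lies far to the left at -2.00, and 7 of 12 fatty acid genes are blue against 3 of 16 cholesterol genes.

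The brightest probe sets of both carboxylase genes, whose enzymes make malonyl-CoA in the committed step, were lower. Acaca, the cytosolic acetyl-CoA carboxylase, read 8.01, 8.02 and 8.10 in control lungs and 7.67, 7.36 and 7.28 in hydrogen lungs. It was 1.52-fold lower (log2 fold change -0.61, SE 0.10, limma adjusted p = 0.00183), and the groups did not overlap. The other Acaca probe set, a dim one, had 0.03 and did not pass (adjusted p = 0.640). Acacb, the carboxylase at the mitochondrial surface whose product restrains fatty acid oxidation, read 6.40, 6.31 and 6.60 in control and 6.02, 5.87 and 5.98 in hydrogen. It was 1.39-fold lower (log2 fold change -0.48, SE 0.08, adjusted p = 0.00245 in limma), again without overlap. A second Acacb probe set, dim and below the median probe set, went the other way (log2 fold change 0.30, adjusted p = 0.00841), and the mean of both gave -0.09 (adjusted p = 0.276). The upstream gene Acly, whose enzyme supplies acetyl-CoA from citrate, had a log2 fold change of -0.003 and did not pass (adjusted p = 0.970).

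Fasn, the synthase that assembles palmitate, read 9.04, 9.12 and 9.22 in control and 8.97, 8.62 and 8.65 in hydrogen. It was 1.30-fold lower (log2 fold change -0.38, SE 0.10, limma adjusted p = 0.0138). Hydrogen replicate 1 lay close to the lowest control and replicates 2 and 3 lay well below it. The call ended without hydrogen replicate 2 (adjusted p = 0.0513) and after cyclic loess (-0.22, adjusted p = 0.120) or renewed quantile normalisation (-0.21, adjusted p = 0.125).

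Elongation genes split by member. Elovl6, which lengthens palmitate to stearate, read 5.67, 5.53 and 5.99 in control and 5.42, 5.02 and 5.05 in hydrogen, 1.48-fold lower (log2 fold change -0.57, SE 0.14, limma adjusted p = 0.0108). Elovl5, which lengthens polyunsaturated chains, read 10.63, 10.64 and 10.73 in control and 10.21, 10.25 and 10.22 in hydrogen, 1.36-fold lower (log2 fold change -0.44, SE 0.05, adjusted p = 0.000692 in limma). Elovl1, which lengthens very long saturated chains, went up: 9.58, 9.78 and 9.72 in control and 10.27, 10.28 and 9.96 in hydrogen. It was 1.39-fold higher (log2 fold change 0.48, SE 0.10, limma adjusted p = 0.00489). None of the 3 elongases overlapped between the groups. The Elovl5 and Elovl1 values come from probe sets of the x type, whose probes can match other transcripts. The other Elovl1 probe set rose as well (0.54, adjusted p = 0.00547), whereas the other Elovl5 probe set had -0.09 and did not pass (adjusted p = 0.216). Of the other Elovl6 probe sets, both dim, one was lower (-0.38, adjusted p = 0.00184). The other had 0.08 and did not pass (adjusted p = 0.240).

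Among the desaturases, Fads1, which acts on polyunsaturated chains, read 8.34, 8.45 and 8.49 in control and 7.96, 8.19 and 8.17 in hydrogen. It was 1.25-fold lower without overlap (log2 fold change -0.32, SE 0.08, limma adjusted p = 0.0103). A second Fads1 probe set was higher, from 5.12, 5.17 and 5.24 in control to 5.66, 5.66 and 5.65 in hydrogen (log2 fold change 0.48, adjusted p = 0.000529). With the mean of both probe sets Fads1 had 0.08 (adjusted p = 0.259), and after cyclic loess its brightest probe set had -0.13 (adjusted p = 0.227). Scd1, the stearoyl-CoA desaturase that makes monounsaturated fat, had -0.41 and did not pass (adjusted p = 0.0978). Scd1 ranged from -0.57 to -0.22 with an array left out, and it passed without control replicate 2 (adjusted p = 0.0406) or hydrogen replicate 1 (0.0391) and with centring (0.0492). Its dimmer probe set was lower by a similar amount and passed (-0.31, adjusted p = 0.0403). The brightest Fads2 probe set had 0.03 (adjusted p = 0.845). Another Fads2 probe set was higher without overlap (0.37, adjusted p = 0.0184), and a dim one had -0.15 (adjusted p = 0.0589).

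The largest difference of all members was in Thrsp, a gene of lipogenic tissues whose protein promotes fatty acid synthesis. It read 8.31, 8.33 and 8.57 in control and 7.76, 5.39 and 6.07 in hydrogen, so that the hydrogen lungs lay below every control but spread far apart. Thrsp was 3.99-fold lower (log2 fold change -2.00, SE 0.49, limma adjusted p = 0.0112). Of all genes 4.13% passed and were lower by more than 1.5-fold. Its second probe set was lower too, from 6.86, 6.77 and 6.97 to 6.17, 5.41 and 5.87 (log2 fold change -1.05, adjusted p = 0.00166). The call of the brighter probe set was lost when limma's prior variance was robust and followed brightness (adjusted p = 0.0783). Gpam, which starts triglyceride assembly on glycerol phosphate, had -0.04 (adjusted p = 0.522), while its dim second probe set had 0.58 (adjusted p = 0.000869).

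**Figure D2:**
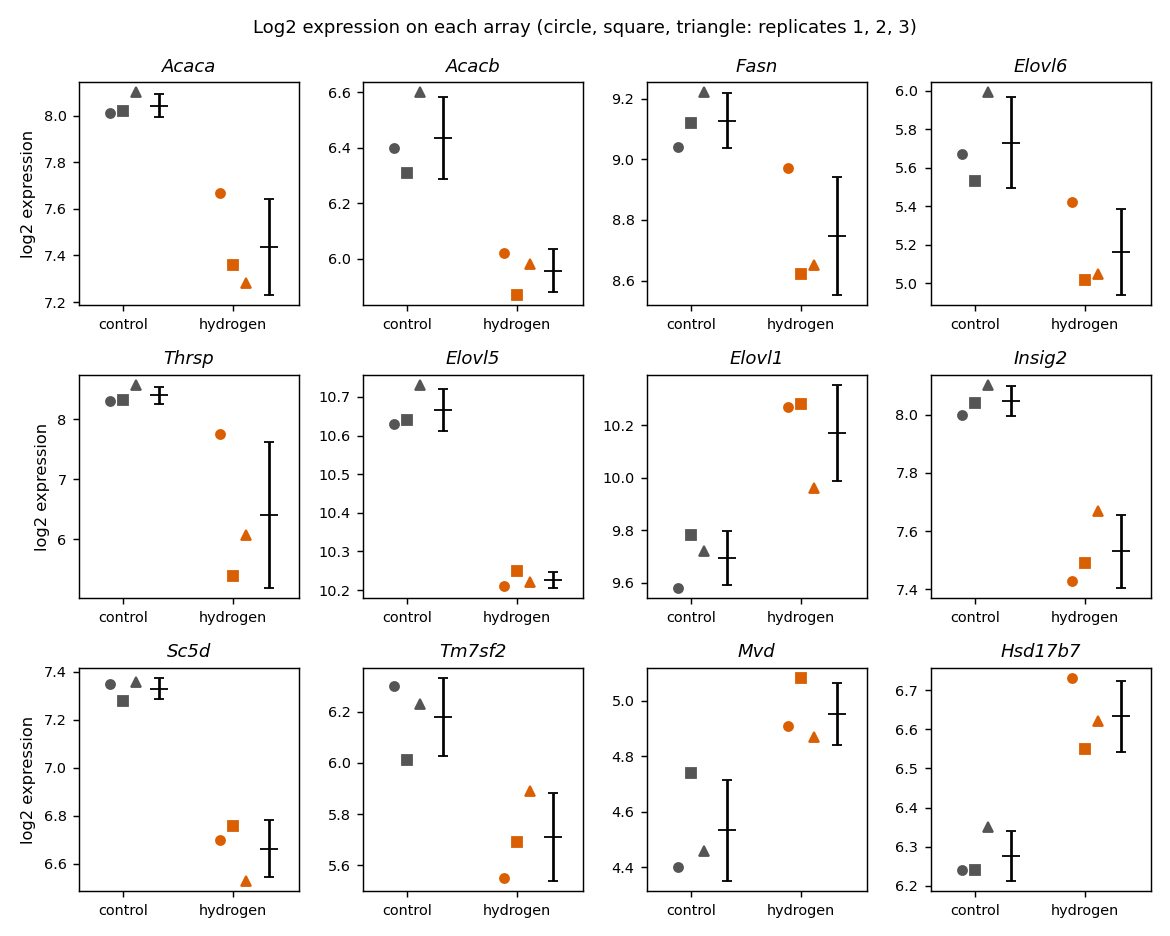
Log2 expression (y axis, a range of its own in each panel) of 12 member genes past the threshold on each control and hydrogen array, with circles, squares and triangles for replicates 1, 2 and 3 and the bar for the mean ± SD of 3 lungs. In Thrsp, Acaca, Fasn and Elovl6 hydrogen replicate 1 is the hydrogen lung nearest to the controls, while the 3 hydrogen values of Elovl5 lie within 10.21 to 10.25.

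In the cholesterol arm 2 of the 3 rises were in mevalonate steps. Mvk, mevalonate kinase, read 5.64, 5.82 and 5.82 in control and 5.93, 6.10 and 6.06 in hydrogen, 1.21-fold higher (log2 fold change 0.27, SE 0.07, limma adjusted p = 0.0169). Mvd, the mevalonate diphosphate decarboxylase, read 4.40, 4.74 and 4.46 in control and 4.91, 5.08 and 4.87 in hydrogen, 1.34-fold higher (log2 fold change 0.42, SE 0.10, adjusted p = 0.00896 in limma). In both genes the groups did not overlap and the second probe set was higher as well (0.66, adjusted p = 0.00198, for Mvk and 0.26, adjusted p = 0.0112, for Mvd). Both Mvd probe sets were dim. The Mvk call of the brighter probe set ended without control replicate 1 (adjusted p = 0.0512), without hydrogen replicate 2 (0.0630) and with arrays centred on the median (0.0771).

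The brightest probe sets of the other 3 measured members acting up to farnesyl diphosphate did not pass. Hmgcs1, the synthase that opens the pathway, was measured by a dim probe set and had -0.28 (adjusted p = 0.0991). It passed after cyclic loess (-0.37, adjusted p = 0.0496), renewed quantile normalisation (0.0469), centring (0.0383), with a replicate block (0.0107) and without hydrogen replicate 1 (0.0294). Idi1, the isomerase of isopentenyl diphosphate, had -0.02 (adjusted p = 0.786), although its second probe set was higher (0.37, adjusted p = 0.0201) and the brighter one passed as higher after renewed quantile normalisation (0.21, adjusted p = 0.0471). Fdps, which makes farnesyl diphosphate, had -0.08 (adjusted p = 0.281).

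The 3 falls were in squalene and sterol steps. Fdft1, squalene synthase, read 6.59, 6.88 and 6.74 in control and 6.56, 6.35 and 6.27 in hydrogen, 1.27-fold lower (log2 fold change -0.34, SE 0.10, limma adjusted p = 0.0192). Hydrogen replicate 1 lay next to the lowest control. The Fdft1 call was lost when control lung 2 (adjusted p = 0.0669), hydrogen lung 2 (0.0618) or hydrogen lung 3 (0.0594) was left out, and after cyclic loess (-0.18, adjusted p = 0.187) or renewed quantile normalisation (-0.17, adjusted p = 0.235).

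Tm7sf2, a sterol reductase acting after lanosterol, read 6.30, 6.01 and 6.23 in control and 5.55, 5.69 and 5.89 in hydrogen, 1.39-fold lower (log2 fold change -0.47, SE 0.10, limma adjusted p = 0.00690). Sc5d, the sterol desaturase late in the pathway, read 7.35, 7.28 and 7.36 in control and 6.70, 6.76 and 6.53 in hydrogen, 1.59-fold lower (log2 fold change -0.67, SE 0.07, adjusted p = 0.000414 in limma). Neither overlapped between the groups. Of the other Sc5d probe sets, one had -0.11 (adjusted p = 0.333) and the other was higher, from 5.20, 5.38 and 5.41 to 5.75, 5.62 and 5.51 (log2 fold change 0.30, adjusted p = 0.0182). The mean of the 3 Sc5d probe sets was -0.16 (adjusted p = 0.0620).

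Hsd17b7, a sterol ketoreductase of the demethylation steps, rose. It read 6.24, 6.24 and 6.35 in control and 6.73, 6.55 and 6.62 in hydrogen, 1.28-fold higher (log2 fold change 0.36, SE 0.07, limma adjusted p = 0.00333). Its other 2 probe sets were higher too (0.17 and 0.20, adjusted p = 0.0397 and 0.0492). Nsdhl, which works beside it, had -0.10 (adjusted p = 0.185). The demethylase gene Cyp51 had -0.19 (adjusted p = 0.0508), with 1 of its dim probe sets lower (-0.27, adjusted p = 0.0188) and the other higher (0.28, adjusted p = 0.00681). The lanosterol synthase gene Lss, with values from 4.48 to 5.07 across the hydrogen lungs, had -0.33 (adjusted p = 0.0732). Leaving out an array moved Lss between -0.48 and -0.19, and it passed in 5 of 17 alternatives, among them without hydrogen replicate 3 (adjusted p = 0.00663) and after cyclic loess (0.0390). Sqle, the squalene epoxidase, had -0.13, Ebp, a sterol isomerase, -0.12, Dhcr7, the last reductase, -0.03 and Stard4, a carrier of cholesterol, -0.13, none past the threshold. Another Stard4 probe set, almost as bright, was lower without overlap (-0.20, adjusted p = 0.0266). The dim one had 0.04 (adjusted p = 0.749).

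The regulators did not move together. Insig2, which retains the SREBP and SCAP complex, read 8.0, 8.04 and 8.10 in control and 7.43, 7.49 and 7.67 in hydrogen, 1.43-fold lower without overlap (log2 fold change -0.52, SE 0.07, limma adjusted p = 0.00109). Another Insig2 probe set was lower (-0.72, adjusted p = 0.000741) and the third had -0.14 (adjusted p = 0.117). Insig1, its paralogue and itself an SREBP target, read 7.44, 7.51 and 7.52 in control and 7.55, 7.47 and 7.35 in hydrogen, with overlapping groups (-0.03, adjusted p = 0.701). The difference between the Insig genes was not tested.

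Srebf2, the transcription factor gene of the cholesterol arm, read 6.38, 6.42 and 6.48 in control and 6.55, 6.59 and 6.71 in hydrogen, 1.14-fold higher (log2 fold change 0.19, SE 0.06, adjusted p = 0.0355 in limma). Its second probe set had 0.13 (adjusted p = 0.141). The Srebf2 call was lost when control lung 1 (adjusted p = 0.0993), control lung 2 (0.0842), hydrogen lung 2 (0.0705) or hydrogen lung 3 (0.107) was left out, with the robust prior that follows brightness (0.0628) and with centring (0.228). Scap, the escort of SREBP, read 7.62, 7.73 and 7.66 in control and 7.49, 7.51 and 7.60 in hydrogen and did not pass (-0.14, adjusted p = 0.0862).

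How far a gene can be read depends on its probe sets. Of the 20 members with more than 1 probe set, 5 had every probe set past the threshold in the same direction (Thrsp lower, and Mvk, Mvd, Hsd17b7 and Elovl1 higher). Another 4 had calls in opposite directions (Cyp51, Sc5d, Acacb and Fads1), 10 had some probe sets past the threshold in a single direction, and in 1, Acly, none passed. Counted over the 59 member probe sets, 17 were higher and 17 lower. Of all probe sets 47.1% passed, 24.3% higher and 22.8% lower. Cholesterol probe sets were higher in 10 and lower in 5 of 27 cases, and fatty acid probe sets higher in 6 and lower in 10 of 25.

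**Figure D3:**
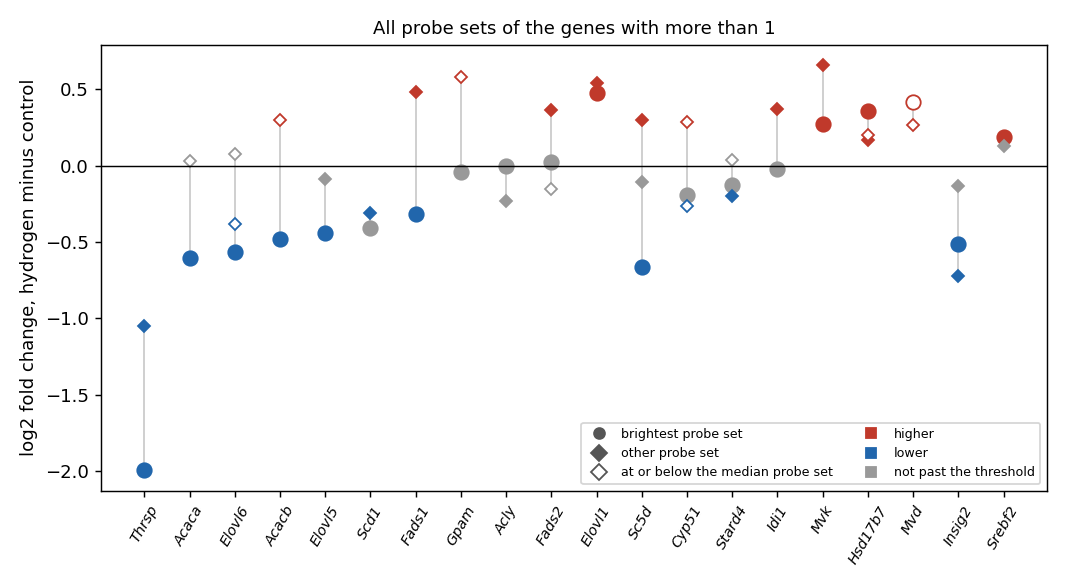
Log2 fold change (y axis) of every probe set of the 20 member genes with more than 1, joined by a line per gene, with large circles for the brightest probe set, diamonds for the others and open symbols where the mean lies at or below that of the median probe set. Lines that cross 0 with red and blue ends mark the 4 genes with opposite calls, Acacb, Fads1, Sc5d and Cyp51.

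Set side by side per lung, the arms lay farther apart in hydrogen replicates 2 and 3 than in any control lung, and in hydrogen replicate 1 about as far as in control replicate 1. The median over the 16 cholesterol genes of the value minus the control mean was -0.14, -0.12 and -0.10 in hydrogen replicates 1, 2 and 3. For the 12 fatty acid genes it was -0.23, -0.39 and -0.45. The difference of these medians, cholesterol minus fatty acid, was 0.09, 0.27 and 0.35 in hydrogen and 0.07, 0.02 and -0.06 in control lungs. Without Thrsp the fatty acid medians were -0.16, -0.35 and -0.45. No test is given for these medians, since the members were chosen with results of these arrays known.

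Under 2 of the other scalings the cholesterol median changed sign, while the fatty acid median stayed below it. After cyclic loess, which evens out the dependence on brightness between arrays, the medians were 0.04 for cholesterol genes, -0.28 for fatty acid genes and 0.03 for all genes. After renewed quantile normalisation they were 0.07, -0.28 and 0.04, with 14.5% of all genes lower and 22.8% higher. After cyclic loess 5 fatty acid genes fell and 1 rose, and 4 cholesterol genes fell and 3 rose, where 16.1% of all genes were lower and 20.5% higher. Centring the arrays on their medians, which lowers every fold change by 0.09, gave 11 lower and 2 higher cholesterol genes and 8 lower and 1 higher fatty acid genes, where 35.8% of all genes were lower and 15.7% higher. With a gene's probe sets averaged, the medians were -0.10 for cholesterol and -0.19 for fatty acid genes, so the gap was narrower.

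Against genes of like brightness, 8 of 12 fatty acid genes lay below the median of their decile of brightness and 10 of 16 cholesterol genes above it. Elovl6 had -0.57 where its decile had 0.10, and Acaca -0.61 where its decile had -0.21. Hsd17b7 had 0.36 where its decile had -0.16, and Sqle, which did not pass, had -0.13 where its decile had -0.16.

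**Figure D4:**
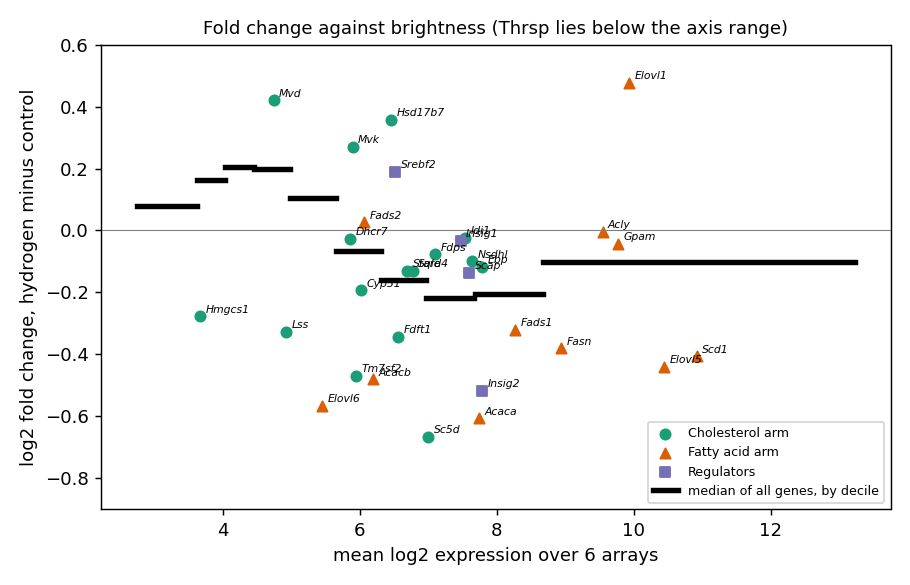
Log2 fold change (y axis) against mean log2 expression over the 6 arrays (x axis) for the member genes except Thrsp, with black bars for the median of all genes in each brightness decile. The bars run from 0.21 in decile 3 to -0.22 in decile 8; most fatty acid genes lie below them and the cholesterol genes lie on both sides.

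Some fat cell markers were lower in hydrogen replicates 2 and 3 than in replicate 1, as were several fatty acid genes. Of 14 adipocyte markers 11 were measured, of which 3 fell and 2 rose (25.9% and 25.5% of all genes), with a median of -0.27. Their mean level was 6.30 to 6.41 in control lungs and 4.93 to 6.35 in hydrogen lungs. Fabp4, the fatty acid carrier of fat cells, read 9.70, 9.90 and 10.00 in control and 9.79, 5.04 and 7.58 in hydrogen, and Car3, a carbonic anhydrase of fat, 10.63, 10.75 and 10.74 in control and 10.81, 5.66 and 8.56 in hydrogen. Adipoq, the adipocyte hormone adiponectin and named after its values were seen, read 7.27, 7.64 and 7.64 in control and 7.23, 3.44 and 4.60 in hydrogen. Retn, the hormone resistin, read 7.05, 7.31 and 7.15 in control and 7.30, 6.70 and 6.70 in hydrogen. In all 4 genes hydrogen replicate 1 was near the controls and replicates 2 and 3 were below. Of these 4, only Adipoq passed (limma adjusted p = 0.0320), whereas Fabp4 (0.0664), Car3 (0.0887) and Retn (0.182) did not. The other markers that fell were Aoc3 (-0.77) and Cidea (-0.72). In Lipe and Slc2a4, which did not pass, replicate 1 was not the hydrogen lung nearest to control. Relative to the control mean, replicates 1 to 3 had -0.05, -0.04 and -0.28 for Lipe and -0.16, -0.50 and -0.14 for Slc2a4. Pnpla2, Ucp1 and Lep lay above the control mean in every hydrogen lung. The markers that rose, Ucp1 and Lep, numbered 0 without control replicate 1 or hydrogen replicate 2, with renewed quantile normalisation and with cyclic loess (limma), and 1 with centring or without control replicate 2, control replicate 3 or hydrogen replicate 1. The number of adipocyte markers that fell was 6 without hydrogen replicate 1, and 1 without control replicate 1, hydrogen replicate 2 or hydrogen replicate 3. Ucp1, Lep and Pnpla2 were at or below the median probe set.

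Thrsp showed the same order of hydrogen lungs as Adipoq, Fabp4 and Car3. Relative to the mean of the control lungs it lay at -0.64, -3.01 and -2.33 (replicates 1 to 3). Acaca had -0.37, -0.68 and -0.76, Elovl6 -0.31, -0.71 and -0.68, Fasn -0.16, -0.51 and -0.48, and Scd1 -0.09, -0.35 and -0.77. In other members replicate 1 was not the hydrogen lung nearest to control: Elovl5 had -0.46, -0.42 and -0.45, Fads1 -0.47, -0.24 and -0.26, Insig2 -0.62, -0.56 and -0.38, Sc5d -0.63, -0.57 and -0.80, and Tm7sf2 -0.63, -0.49 and -0.29. Hydrogen replicate 1 was the nearest to control in 5 of the 7 fatty acid genes that fell and in 1 of the 3 cholesterol genes that fell. Among measured markers, whether past the threshold or not, this held for 6 of 11 adipocyte and 8 of 10 heart muscle markers. The share over all genes was not computed, so these counts have no background to be read against. The part of fat cell and heart muscle RNA in these falls was not tested.

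**Figure D5:**
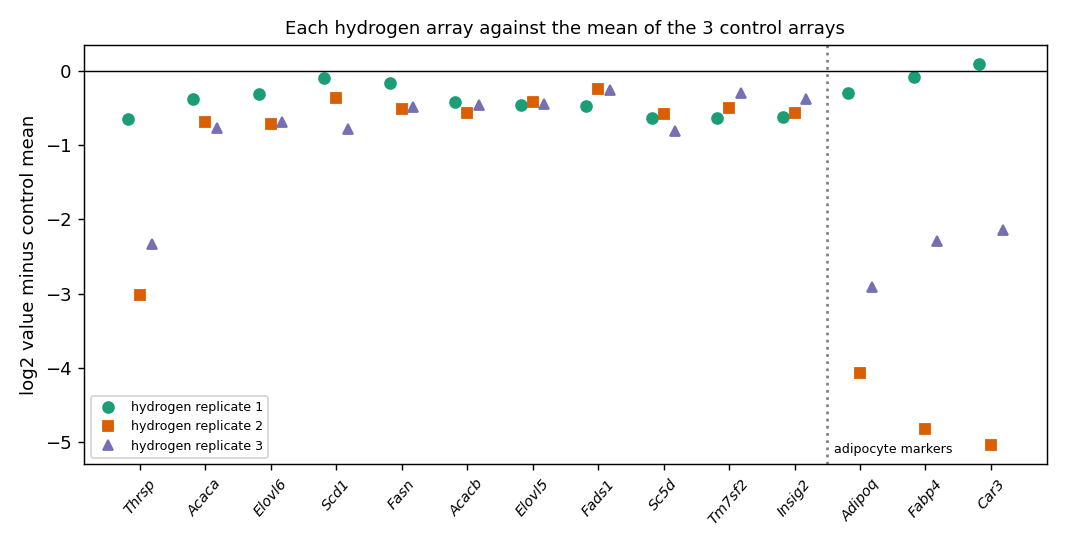
Log2 value of each hydrogen array minus the mean of the 3 control arrays (y axis) for 11 member genes and, right of the dotted line, 3 adipocyte markers. Replicates 2 and 3 of Adipoq, Fabp4 and Car3 lie between -5.05 and -2.15 with replicate 1 near 0; Thrsp has the same order, and Elovl5, Insig2 and Tm7sf2 do not.

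Markers of other cell types were set beside the members in the same way. All 10 measured heart muscle markers of 12 fell, with a median of -1.90, among them Myl7 (-2.17), Myl4 (-1.95) and Actc1 (-1.61). Their mean level was 8.81 to 9.15 in control and 5.79 to 7.69 in hydrogen. The number that fell was 5 when limma's prior variance was robust and followed brightness. It was 7 without control replicate 1 and 9 without control replicate 2. Of 8 measured markers of alveolar type 2 cells (10 listed), 3 rose (25.5% of all genes did) and the other 5 did not pass. Those that rose were Etv5 (0.35), Lpcat1 (0.28) and Abca3 (0.18). The surfactant protein genes Sftpc, Sftpa1 and Sftpd had 0.02, -0.03 and -0.04 and did not pass (adjusted p = 0.765, 0.716 and 0.622). Sftpc, at 13.14 to 13.19, lay close to the highest value of any probe set, which was 13.21 on control replicate 3. The mean level of the list was 10.488 to 10.603 in control and 10.622 to 10.662 in hydrogen. Of 8 measured markers of alveolar macrophages (10 listed), 2 fell (25.9% of all genes did) and the other 6 did not pass. The count that fell was 5 with centring, 1 after cyclic loess or renewed quantile normalisation, 3 without hydrogen replicate 3, and 1 when any other array was left out. Mrc1 fell (-0.50), whereas Fabp5 (-0.12) and Chil3 (-0.08) did not pass, and the mean level was 7.24 to 7.47 in control and 7.11 to 7.35 in hydrogen. Of 10 lung fibroblast markers, 3 fell and 1 rose (25.9% and 25.5% of all genes). With centring 5 fell. The number that rose was 0 with centring, with probe sets averaged or without hydrogen replicate 1 or 2. It was 2 after cyclic loess or renewed quantile normalisation and 3 with the robust prior that follows brightness. Dcn (-0.76), Tcf21 (-0.74) and Col1a1 (-0.34) fell and Npnt rose (0.19), while Inmt (0.11) and Col3a1 (-0.17) did not pass, with mean levels of 8.34 to 8.37 in control and 8.13 to 8.29 in hydrogen. The part of these cell types in the members' differences was not tested.

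In lists of related lipid genes outside the members, shares are to be read against the 25.9% of all genes that were lower and the 25.5% that were higher. Of 20 other measured genes linked to fatty acid synthesis (24 listed), 6 fell and 2 rose, with a median of -0.10. With centring 11 fell, and a single gene rose when any array but control replicate 3 was left out. Acsl3, an acyl-CoA synthetase, fell by 1.13 on the log2 scale, the elongation dehydratase genes Hacd1 and Hacd2 by 0.96 and 0.67. Acss2, which activates acetate, was lower as well (-0.50). The Acsl3 and Hacd1 values come from probe sets of the s type, whose probes can match other transcripts. Without s, x and a probe sets, 4 of 16 measured genes of this list fell. Mcat, of mitochondrial fatty acid synthesis, rose (0.31), as did the acyl-CoA synthetase gene Acsl4 (0.17). The transcription factor genes Mlxipl and Mlx of carbohydrate-driven lipogenesis had -0.03 and -0.01 and did not pass.

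Of 19 measured genes of triglyceride and phospholipid synthesis (20 listed), 6 rose and 5 fell, with a median of 0.01. The count of falls was 2 when control lung 1 or 2, or hydrogen lung 1 or 2, was left out, and 3 when control lung 3 was. It was also 2 after cyclic loess or renewed quantile normalisation. Pcyt1a, the rate-setting enzyme of phosphatidylcholine synthesis, fell by 0.71 on the log2 scale. Agpat1 (-0.22), Gpat3 (-0.34) and Chkb (-0.15) were lower as well. Mogat2 (0.78, a dim probe set), Gpat4 (0.35), Pemt (0.24) and Lpcat1, which makes the saturated lecithin of surfactant (0.28), rose. Of 11 measured genes of sterol export and storage (14 listed), 3 fell and the other 8 did not pass. With centring 6 fell. Cyclic loess and renewed quantile normalisation each left 1 that fell and gave 1 that rose. Those that fell in the deposited scaling were Stard5 (-0.41) and Npc1 (-0.37), which move sterols inside cells, and the lipoprotein receptor gene Scarb1 (-0.35). The sterol exporter gene Abcg1 had 0.03, and Nr1h3, the sterol sensor LXR alpha, 0.11, neither past the threshold. Of 5 further genes of the sterol and isoprenoid pathway 3 were measured, and 1 fell: Ggps1, which makes geranylgeranyl diphosphate (-0.61, limma adjusted p = 0.000692). Msmo1, a sterol oxidase, had -0.01 and Lbr, a sterol reductase, -0.04.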

How the data were processed

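Expression was measured in 6 mouse lungs, 3 per group, on MG-430 PM Array Strips. Per the submitters' processing notes, the deposited log2 values were made with RMA and Affymetrix Expression Console. Tool versions and the set of arrays normalised together are not given in the sources. Array medians were 4.75 to 4.76 in control and 4.84 to 4.85 in hydrogen, and SDs over probe sets 1.90 to 1.92 and 1.80 to 1.81. The number of arrays limits the precision, and an exact permutation of 3 against 3 cannot give a two-sided p under 0.1.

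Of 45037 probe sets left after removal of 104 control probe sets, 28898 name 1 gene in the array annotation, 551 several and 15588 none. All 35 member symbols were found in RefSeq names of GRCm38.p6. Hydrogen was compared with control in limma 3.58.1 (R 4.3.3; lmFit, eBayes without trend) on all 45037 probe sets without filtering. P-values were adjusted by Benjamini-Hochberg over them, and the fit was tested on simulated data. The simulation had independent noise, few changed probe sets and no shift with array or brightness. It therefore cannot speak for the calls in these data, where much of the array differed. The probe set of highest mean stood for a gene. Figures used matplotlib 3.10.9.

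The members and lists were chosen with earlier results of these data known. Values on every array are given for the regulators and for members past the threshold. Of each related list up to 4 genes per direction with the smallest p were to be named, and of each cell type list the 3 of highest mean level. Adipoq, Aoc3, Cidea, Ucp1, Lep, Pnpla2, Lipe, Slc2a4, Dcn, Tcf21, Col1a1, Etv5, Abca3, Mlxipl, Mlx, Abcg1, Nr1h3, Msmo1 and Lbr fall outside that rule. Alternatives were other scalings, weights, priors, probe set choices, a replicate block and leaving out each array. Replicate numbers are shared by the groups, but deviations of same-numbered arrays correlated at 0.08, 0.03 and -0.11, so the numbers were not taken as pairs.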

Additional observations from a re-analysis of the deposited data

How the results depend on the processing

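With arrays centred on the median, the median log2 fold change was -0.21 for cholesterol genes and -0.18 for regulators, 11 cholesterol genes and 2 regulators were lower, 0 regulators were higher in limma, and 10 member probe sets were higher and 30 lower. After renewed quantile normalisation the medians turned positive for cholesterol genes (0.067) and were -0.28 for fatty acid genes and 0.14 for regulators, and after cyclic loess they were 0.044, -0.28 and 0.12. With a gene's probe sets averaged, they were -0.10 for cholesterol and -0.19 for fatty acid genes, 2 fatty acid genes were higher, and Fads1 turned from -0.32 to 0.08. Without s, x and a probe sets 0 fatty acid genes were higher, since Elovl1 has no probe set of another kind, and 11 member probe sets were higher. Leaving out only s and x probe sets, chosen after seeing the data, ended the Elovl5 call (-0.09, adjusted p = 0.219). Without dim probe sets 10 member probe sets were higher, as fewer were tested, and with a robust prior that follows brightness 0 regulators were higher, the gene concerned being Srebf2. The cause of the other shifts was not tested.

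Leaving out each of the 6 arrays gave medians of -0.14 to -0.10 for cholesterol genes, -0.46 to -0.33 for fatty acid genes and -0.11 to -0.065 for regulators. It gave 2 to 3 higher and 2 to 4 lower cholesterol genes, 1 higher and 6 to 8 lower fatty acid genes, 0 to 1 higher and 1 lower regulator, and 11 to 16 higher and 14 to 19 lower member probe sets (11 without control replicate 1, against 17 with all arrays). With the replicate block 7 fatty acid genes were lower and 1 higher, 4 cholesterol genes lower and 3 higher, and 15 member probe sets higher and 18 lower. The block changed the call of 1 member gene, Hmgcs1. Under every alternative run, Acaca, Elovl6, Insig2 and Tm7sf2 stayed lower and Hsd17b7 and Mvd higher past the threshold where measured, as did Elovl1. Low signal limits Mvd and Hmgcs1, which lie at or below the median probe set.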
